A study of Mus musculus with 47 samples.

Results

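The 44 genes described here are the glutathione and NRF2 antioxidant genes of the mouse kidney: glutathione transferases, the enzymes that make, recycle and break down glutathione, the enzymes that supply NADPH, the enzymes that remove superoxide and peroxides, textbook targets of NRF2, and NRF2 (Nfe2l2) with its sensor Keap1. They were taken by gene symbol from the 22474 genes of the deposited table. 43 of the 44 passed the filter on low counts and were tested beside 18786 genes in all. The exception, Gstm3, stayed at or below 0.281 CPM in every library. Polyadenylated RNA was sequenced from 47 kidney samples of 3 inbred mouse strains, all labelled WT with no further treatment. NZO/HlLtJ is a strain prone to obesity and diabetes, CAST/EiJ is a wild-derived strain and C57BL/6J is the common laboratory strain. Females and males ate a control diet with 10% fat and fiber or a high fat, high sugar diet with 44% fat and fiber from 6 weeks of age, and tissue was taken at 15 weeks. That gives 12 groups of strain, sex and diet with 4 libraries each, except CAST/EiJ males on 10% fat with 3. No label says that libraries of a group come from different animals, so a p-value reflects the scatter among these libraries, part of which may be technical.

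Glutathione is a small thiol that cells hold at high concentration. Glutathione transferases attach it to reactive compounds, glutathione peroxidases spend it to reduce peroxides, and glutathione reductase restores it with NADPH. NRF2 is the transcription factor that raises many of these genes: KEAP1 marks it for breakdown until oxidants or electrophiles modify KEAP1, after which NRF2 pairs with small MAF proteins and binds antioxidant response elements in promoters. In the kidney much of this chemistry takes place in the proximal tubule, which takes up glutathione breakdown products, meets many xenobiotics and makes the plasma glutathione peroxidase.

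The core of the antioxidant response element can be written TGACNNNGC. It was searched on both strands of RefSeq promoter windows on GRCm38.p6, each 250 bases before to 50 after an annotated start, and matched to members by symbol. 38 of the 44 members had at least 1 window, and Gsr, Gsta4, Prdx6, Gclc, Hmox1 and Gstt2 had none. The motif was in at least 1 window of 14 of those 38 members (36.8%) and of 3781 of the 27025 genes with a window (14%). Counted by window, it was in 16 of 56 member windows (28.6%) and in 4071 of all 32851 windows (12.4%). Textbook NRF2 targets were put among the members by choice, so the members' shares are not independent of that choice. The window of Nqo1, a textbook target, held no match. The 6 stretches below, each read along its gene's strand with the motif in capitals, are those of Me1 and Prdx1, whose match TGACTCAGC also contains the AP-1 motif TGACTCA, of Gclm, a subunit of the enzyme that limits glutathione synthesis, and of Gstm7, Gsta3 and Mgst1, 3 transferases with large strain differences. In Prdx1, Gclm and Mgst1 the motif lies on the opposite strand, so the capitals show its reverse complement. The stretches are at chr9:86695912-86695940 (minus strand), chr4:116685446-116685494 (plus strand), chr3:122245403-122245451 (plus strand), chr3:107931715-107931763 (minus strand), chr1:21240444-21240492 (plus strand) and chr6:138140451-138140499 (plus strand). Their motifs begin 6, 133, 134, 129, 121 and 56 bases before the RefSeq start of the window that holds them. By the deposited gene coordinates, however, the stretches of Me1, Gstm7 and Mgst1 lie inside the gene. Each of these genes also had a window without the motif. A match describes these letters and shows no binding.
Me1: cggctcggccgatgccgccgTGACTCAGC
Prdx1: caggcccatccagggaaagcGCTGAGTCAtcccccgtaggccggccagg
Gclm: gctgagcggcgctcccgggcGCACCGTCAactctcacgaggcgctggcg
Gstm7: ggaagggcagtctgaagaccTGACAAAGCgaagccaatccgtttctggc
Gsta3: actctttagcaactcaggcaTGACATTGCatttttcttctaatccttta
Mgst1: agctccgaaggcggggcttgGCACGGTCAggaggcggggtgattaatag

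Each library held 34394546 to 58433712 counts (median 44759432), of which 10.7% to 15.5% came from mitochondrial genes. Levels are given as CPM, counts scaled to a common library size with TMM factors, and are not corrected for transcript length, so a level is compared between groups for 1 gene and never between genes. The 10 proximal tubule markers, among them Lrp2, Cubn and Slc34a1, summed to 14854 to 21391 CPM over all libraries. The labels call the tissue metanephros and give collection at 15 weeks of age. Of the 3 nephron progenitor markers in the table, Cited1 and Eya1 stayed at or below 1.34 CPM while Meox1 ran from 2.27 to 6.14 CPM (median 3.90). In bulk tissue, fewer cells of a type and less RNA per cell cannot be told apart. All comparisons come from 1 edgeR quasi-likelihood fit to all 47 libraries with a term for the leading digits of the ID numbers in the titles (77, 81 or 89, called ID runs here), and "called" means a Benjamini-Hochberg adjusted p under 0.05 over the 18786 genes. What an ID run stands for is not in the labels, and its term called 0 genes (1258 at an unadjusted p under 0.05) and 0 members (1 at an unadjusted p under 0.05).

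The genes split in part by role between the sexes. Most enzymes that remove peroxides and superoxide, that make, recycle or break down glutathione, or that supply NADPH were higher in males. The transferases were mixed. Every sex call among the alpha class, the omega class gene Gsto1 and the microsomal transferases was higher in females. Among the others, Gstm2 and Gstt3 were called higher in females in all 3 strains and Gstp1 and Gstz1 higher in males. Gstm5 and Gstm7 had calls in opposite directions. In C57BL/6J 32 of the 43 tested members were called (74.4%, against 47.9% of all genes), 11 higher in females and 21 higher in males, where 25.1% and 22.7% of all genes were called in these directions. CAST/EiJ gave 34 calls (79.1%, background 47.6%), 14 higher in females and 20 in males, beside 23.7% and 23.9% of all genes. NZO/HlLtJ gave 34 calls (79.1%, background 49.9%), 13 higher in females and 21 in males, beside 25.4% and 24.5% of all genes. The members' median log2 fold change, females minus males, was -0.15, -0.11 and -0.12 in the 3 strains, and that of all genes was 0.046, 0.047 and 0.038. With a fold of at least 1.5 as well, 9, 11 and 10 members were called (20.9%, 25.6% and 23.3%), against 13.9%, 13.4% and 16.9% of all genes.

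In all 3 strains, 16 of the 43 tested members were called higher in males, against 14.6% of all genes. They were Gstp1, Gstz1, Gclm, Gss, Gsr, Ggt1, Pgd, Taldo1, Me1, Gpx1, Gpx4, Cat, Sod1, Prdx1, Prdx6 and Keap1. 8 were called higher in females in all 3, against 13.4% of all genes: Gsta2, Gsta4, Gstm2, Gstt3, Gsto1, Mgst1, Tkt and Nfe2l2. Gstm5 and Gstm7 were called in opposite directions in different strains, and Gstm4, Gstt2, Slc7a11 and Gpx3 were called in none. The remaining 13 were called in 1 or 2 strains in a single direction. Each called difference had the same sign within each of the 3 ID runs for all 32 calls in C57BL/6J, for 32 of 34 in CAST/EiJ (not Gclc and Gstm5) and for 31 of 34 in NZO/HlLtJ (not Sod1, Sod2 and Tkt). In NZO/HlLtJ the females of run 81 were all on 10% fat and the males on 44%, and run 89 held the reverse, so sex and diet cannot be told apart within those runs.

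**Figure D1:**
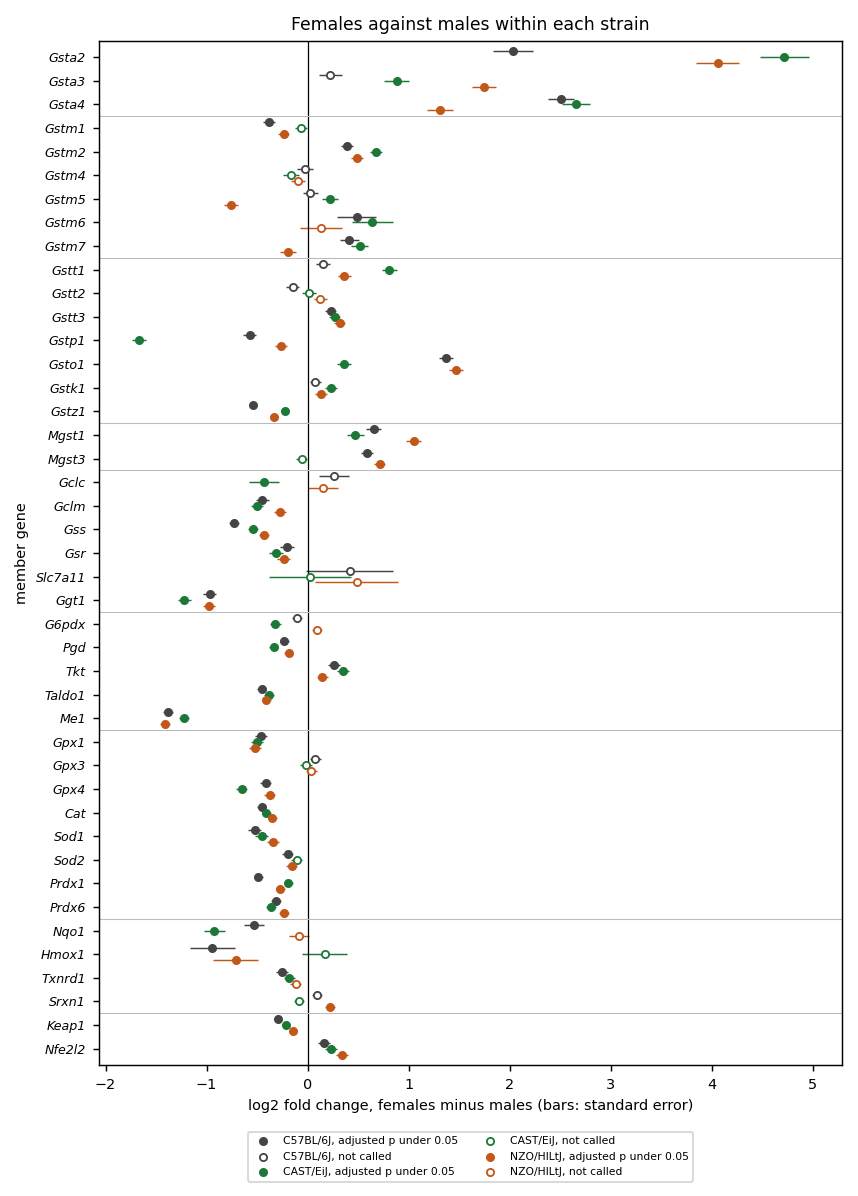
Log2 fold change of each tested member, females minus males, in C57BL/6J, CAST/EiJ and NZO/HlLtJ (x axis), with genes grouped by role on the y axis; bars are standard errors and filled points have an adjusted p under 0.05. Alpha class transferases lie to the right, and the 8 genes for superoxide and peroxide removal lie at or left of 0 apart from Gpx3 in C57BL/6J and NZO/HlLtJ.

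Markers of kidney segments also differed between the sexes. The 3 markers of the S3 segment of the proximal tubule, Slc7a13, Slc5a8 and Cyp7b1, were all called lower in females in every strain. Their sum ran from 174 to 284 CPM over all females and from 1529 to 2022 CPM over all males. Over all libraries, Slc7a13 ran from 0.511 to 1182 CPM, Cyp7b1 from 1.60 to 254 CPM and Slc5a8 from 137 to 758 CPM. Fewer S3 cells and less RNA of these genes per cell cannot be told apart, so the sum does not measure segment size. All 4 thick ascending limb markers and all 4 podocyte markers were called higher in females in each strain, as was Slc12a3 of the distal convoluted tubule, whose other marker, Pvalb, was called in C57BL/6J and NZO/HlLtJ. The distal convoluted tubule sum did not overlap between the sexes, at 899 to 1119.7 CPM in females and 605 to 734 CPM in males of C57BL/6J, 585 to 685 and 368 to 529 CPM in CAST/EiJ, and 886 to 1015 and 514 to 662 CPM in NZO/HlLtJ. The podocyte sum was 465 to 509 CPM in C57BL/6J females and 329 to 399.6 CPM in males. The sum of the general proximal tubule markers overlapped between the sexes in each strain. The part of any segment in the members' sex differences was not tested.

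Between strains, CAST/EiJ stood above both other strains for 16 of the 43 tested members, against 26.3% of all genes. NZO/HlLtJ stood below both for 18 of the 43, against 13.2% of all genes. 31 of 43 members differed between NZO/HlLtJ and C57BL/6J (72.1%, against 52.2% of all genes), 7 higher and 24 lower in NZO/HlLtJ, where 26.4% and 25.8% of all genes were called in those directions. 34 differed between CAST/EiJ and C57BL/6J (79.1%, background 71.4%), 20 higher and 14 lower in CAST/EiJ, beside 36.2% and 35.2% of all genes. 37 differed between NZO/HlLtJ and CAST/EiJ (86%, background 70%), 10 higher and 27 lower in NZO/HlLtJ, beside 34.8% and 35.2% of all genes. The median log2 fold changes of the members were -0.12, 0.13 and -0.26, against -0.0024, 0.0062 and -0.005 over all genes. With the 1.5-fold minimum the counts were 10, 14 and 15 (23.3%, 32.6% and 34.9%), beside 15.9%, 30.6% and 30.2% of all genes. The shares for CAST/EiJ against C57BL/6J were near the background and say nothing particular about these genes. None of the background shares, for strain, sex or diet, was matched to the members' expression level, and the background includes genes with low counts. The members were also chosen with earlier results of these data known. The 3 comparisons share libraries, and each weighs sexes and diets equally.

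The 16 members that CAST/EiJ held above both others were Gstm2, Gstt2, Gstt3, Gsto1, Gstk1, Gstz1, Mgst3, Gclc, Gclm, Tkt, Gpx1, Gpx4, Sod1, Sod2, Prdx6 and Txnrd1, and the 7 it held below both (background 25.7%) were Gsta3, Gstt1, Gss, Taldo1, Me1, Nqo1 and Keap1. C57BL/6J was called above both for 11 (background 14%), including Gsta2, Gsta3, Gsta4, Mgst1, Nqo1 and Prdx1, and below both for 5 (background 14.1%), Gstm1, Gstm4, Gstm7, Gstz1 and Mgst3. NZO/HlLtJ was called above both for 4 (background 13.5%), Gstm4, Gstm5, Gstm7 and Gss. Gsr and Ggt1 were called in no strain comparison. Within the ID runs, all 31 and 34 calls against C57BL/6J had the same sign in each run, and 33 of 37 did for NZO/HlLtJ minus CAST/EiJ, where 1 run each went the other way for Gstm7 (-0.004 in run 89), Hmox1 (0.08 in run 77), Me1 (-0.03 in run 81) and Taldo1 (-0.03 in run 81). Some of these calls are small: Mgst3 for NZO/HlLtJ against C57BL/6J, 0.09 (adjusted p = 0.0497), was made in 9 of 32 fits that left out 1 library and lost in 4 of 6 other alternatives. Gstz1 in the same comparison, 0.07 (adjusted p = 0.0202), was lost without C57BL/6J female 44% fat library 1 (adjusted p = 0.0566) or NZO/HlLtJ female 10% fat library 3 (adjusted p = 0.0528). Taldo1 for CAST/EiJ against C57BL/6J, -0.08 (adjusted p = 0.023), was lost without CAST/EiJ female 10% fat library 4 (adjusted p = 0.0508) or male 44% fat library 4 (adjusted p = 0.0569), and on 10% fat alone. Pgd, among the 11 of C57BL/6J, was called in 28 of 32 and 29 of 31 such fits against NZO/HlLtJ and CAST/EiJ. Whether the reads of each strain were aligned to a genome of that strain is not given in the sources used here, and the part of sequence differences between strains in these values was not tested. The sum of 5 macrophage markers was 100.03 to 128 CPM in CAST/EiJ females and 116 to 158 CPM in males, against 80.97 to 96.1 and 75.8 to 115 CPM in C57BL/6J and 55.6 to 89.5 and 56.3 to 87.7 CPM in NZO/HlLtJ. Of the 5 markers, Csf1r was called higher and Adgre1, C1qa and C1qb lower in CAST/EiJ than in C57BL/6J. Segment markers differed between strains as well. In males, the thick ascending limb sum was 3756 to 4944 CPM in NZO/HlLtJ and 5454 to 6787 CPM in C57BL/6J. It was 7013 to 8308 CPM in CAST/EiJ males, and the strains overlapped in females. The distal convoluted tubule sum in CAST/EiJ females, 585 to 685 CPM, lay below that of all other females. The part of these and of the macrophage markers in the strain differences was not tested.

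**Figure D2:**
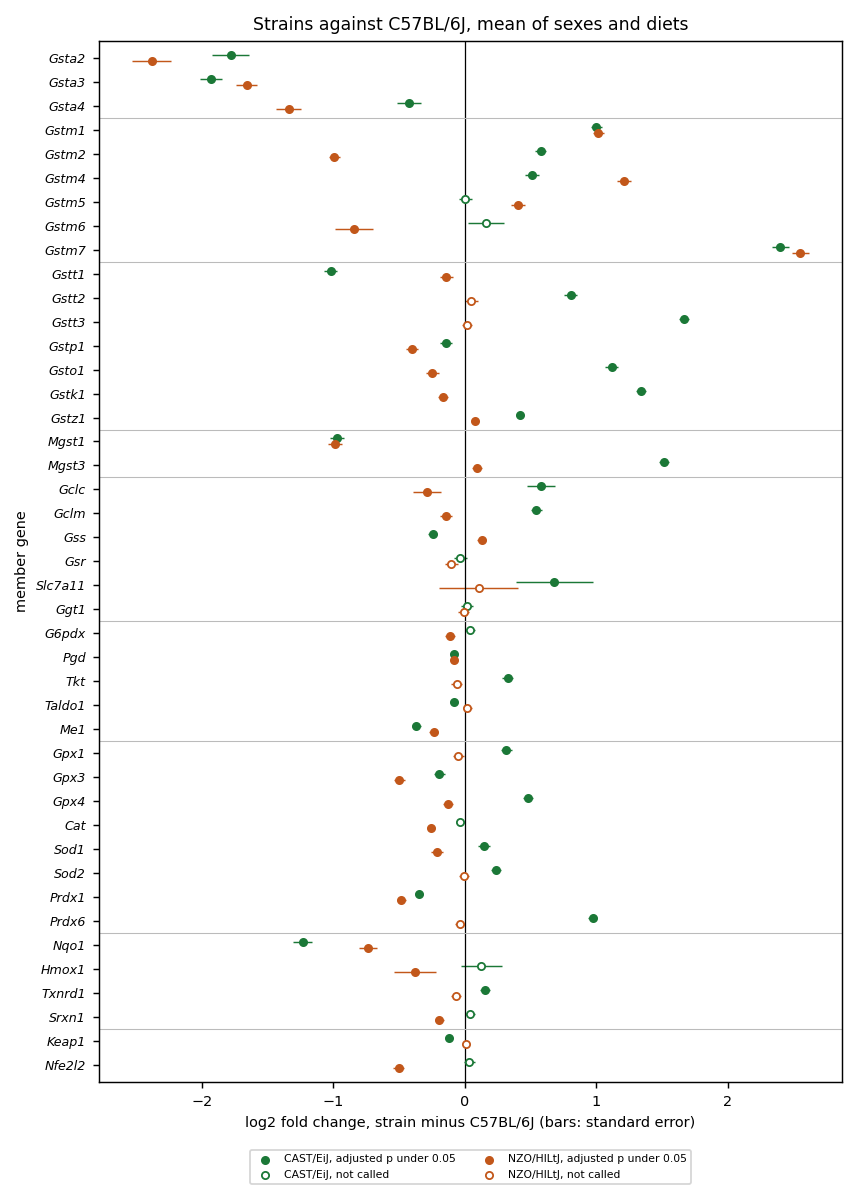
Log2 fold change of each tested member in CAST/EiJ and in NZO/HlLtJ against C57BL/6J, as the mean of sexes and diets (x axis), with genes grouped by role on the y axis; bars are standard errors and filled points have an adjusted p under 0.05. Gstm7 lies far right in both strains and the 3 alpha class genes lie left in both.

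As a description over all members, each gene's log2 CPM was turned into a z-score over the 47 libraries and averaged per library. The mean z-score was highest in CAST/EiJ males, at 0.53 ± 0.11 (SD, n = 3) on 10% fat and 0.65 ± 0.19 (SD, n = 4) on 44% fat. It was lowest in NZO/HlLtJ females on 10% fat, at -0.58 ± 0.09 (SD, n = 4). This mean hides opposite patterns, since the alpha class genes alone averaged -0.99 ± 0.18 (SD, n = 4) in CAST/EiJ males on 44% fat and 1.28 ± 0.20 (SD, n = 4) in C57BL/6J females on 44% fat.

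**Figure D3:**
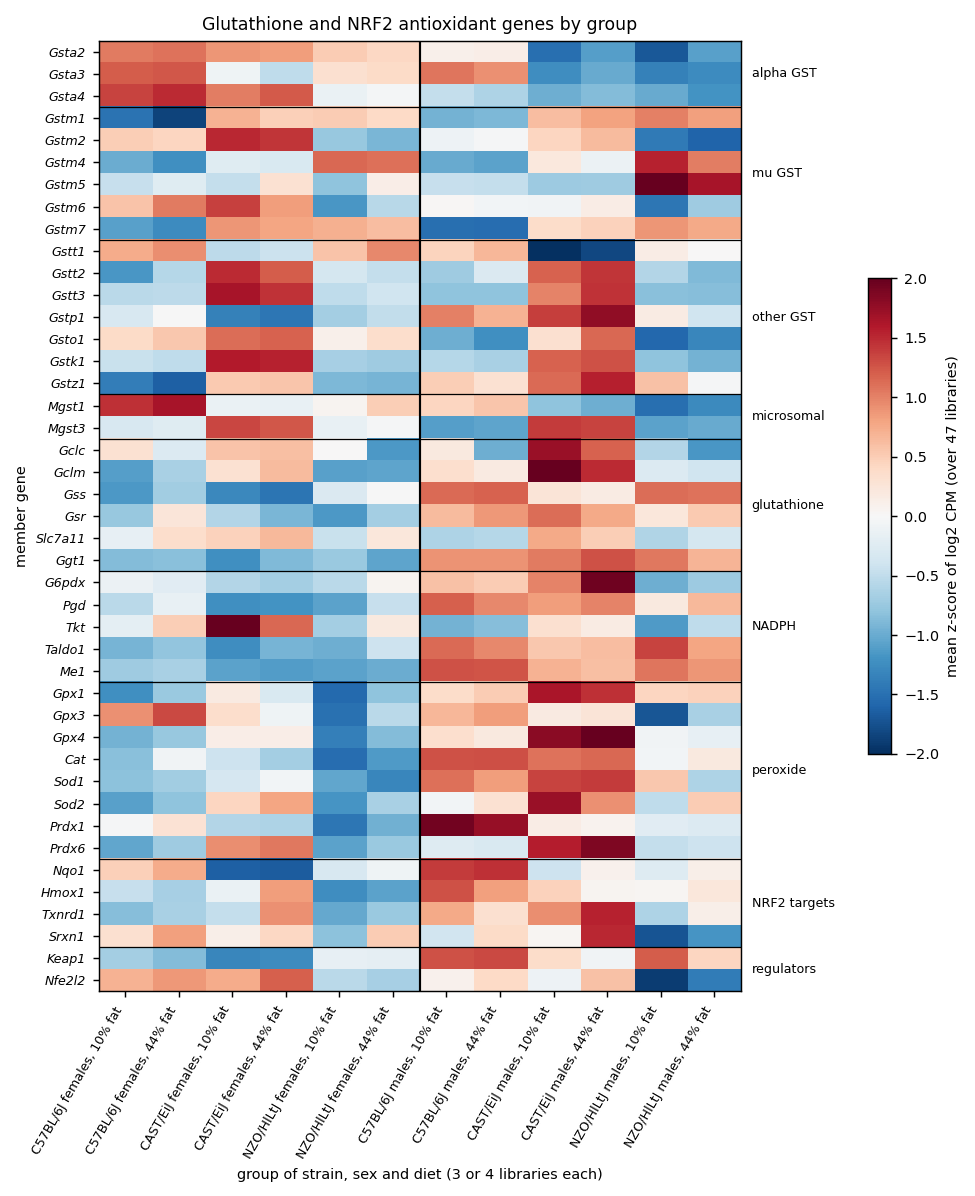
Mean z-score of log2 CPM over the 47 libraries (color, red high and blue low) for each tested member (rows, grouped by role) in the 12 groups of strain, sex and diet (columns, females left and males right of the black line). Red fills the transferase rows Gstt2, Gstt3, Gstk1 and Mgst3 in CAST/EiJ of both sexes, and blue fills Gsta2 in CAST/EiJ and NZO/HlLtJ males. Diet gaps within a strain and sex show for a few genes, such as Srxn1 in NZO/HlLtJ females (-0.82 on 10% fat and 0.50 on 44% fat).

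The alpha class transferases conjugate glutathione to electrophiles and reduce lipid hydroperoxides. Gsta2, at chr9:78331018-78355788 on GRCm38, gave the largest sex difference of any member in CAST/EiJ and NZO/HlLtJ, while in C57BL/6J that of Gsta4 was larger. In C57BL/6J, Gsta2 ran from 384 to 503 CPM (median 425) in females and 53.9 to 136 CPM (median 112) in males. In CAST/EiJ, Gsta2 ran from 267 to 365 CPM (median 309) in females and 5.08 to 29.9 CPM (median 11.6) in males, and in NZO/HlLtJ from 121 to 199.7 CPM (median 171) in females and 5.17 to 26.4 CPM (median 8.56) in males. No male library reached any female library of its strain, and every C57BL/6J male lay above every CAST/EiJ and NZO/HlLtJ male. The log2 fold change, females minus males, was 2.03 (SE 0.19, adjusted p = 7.63e-11) in C57BL/6J, 4.72 (SE 0.24, adjusted p = 5.63e-18) in CAST/EiJ and 4.06 (SE 0.22, adjusted p = 1.71e-17) in NZO/HlLtJ. The sex difference was larger than in C57BL/6J by 2.68 (SE 0.28, adjusted p = 6.96e-09) in CAST/EiJ and by 2.02 (SE 0.27, adjusted p = 3.18e-06) in NZO/HlLtJ. Against C57BL/6J, Gsta2 was -1.78 (adjusted p = 2.6e-13) in CAST/EiJ and -2.38 (adjusted p = 4.31e-16) in NZO/HlLtJ. Gsta2 shares 60.7% of its 31-base stretches with other transcripts, chiefly Gsta1 (44.7%) and Gm10639 (43.6%), so reads of these genes may be split. Summed over the 3 genes, with Gm10639 added after its values were seen, levels were 423 to 541 CPM in C57BL/6J females and 54.995 to 139 CPM in males, 388 to 558 and 7.21 to 40.2 CPM in CAST/EiJ, and 143 to 244 and 6.08 to 29.4 CPM in NZO/HlLtJ. The sexes stayed separate in the sum, but C57BL/6J and CAST/EiJ females overlapped, which they did not for Gsta2 alone.

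Gsta4, the alpha class enzyme specialised for the lipid peroxidation product 4-hydroxynonenal, followed the same direction. In C57BL/6J, Gsta4 was 57.3 to 97.9 CPM (median 70.1) in females and 11.8 to 16.7 CPM (median 11.99) in males. In CAST/EiJ, Gsta4 was 42.4 to 76.97 CPM (median 54.3) in females and 7.65 to 10.7 CPM (median 9.32) in males, and in NZO/HlLtJ 14.7 to 26.97 CPM (median 18.9) in females and 6.23 to 9.64 CPM (median 7.89) in males. The sexes did not overlap in any strain, and NZO/HlLtJ females lay below all other females. The fold change, females over males, was 5.69-fold in C57BL/6J, 6.29-fold in CAST/EiJ and 2.47-fold in NZO/HlLtJ, and on the log2 scale the NZO/HlLtJ difference was smaller than that of C57BL/6J with an interaction of -1.20 (SE 0.18, adjusted p = 1.81e-05). Gsta4 fell by 1.34 on the log2 scale in NZO/HlLtJ against C57BL/6J (adjusted p = 7.05e-15). Gsta3, at chr1:21240589-21265661, was 45.3 to 76.03 CPM (median 59.7) in females and 42.01 to 59.8 CPM (median 49.9) in males in C57BL/6J. In CAST/EiJ, Gsta3 was 12.8 to 26.9 CPM (median 20.6) in females and 7.80 to 14.1 CPM (median 10.8) in males, and in NZO/HlLtJ 26.9 to 37.5 CPM (median 30.5) in females and 7.36 to 11.9 CPM (median 9.37) in males. C57BL/6J libraries of both sexes lay above all others, and the sexes were separate in NZO/HlLtJ alone. Against C57BL/6J, the log2 difference of Gsta3 was -1.93 (SE 0.08, adjusted p = 1.46e-21) in CAST/EiJ and -1.66 (SE 0.08, adjusted p = 3.46e-19) in NZO/HlLtJ. Its sex difference was 0.22 (adjusted p = 0.0982) in C57BL/6J, 0.88 (adjusted p = 1.98e-07) in CAST/EiJ and 1.75 (adjusted p = 3.2e-15) in NZO/HlLtJ, a difference between NZO/HlLtJ and C57BL/6J of 1.52 (adjusted p = 1.23e-08).

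The mu class transferases lie side by side on chromosome 3, from Gstm5 at chr3:107895821-107898686 to Gstm4 at chr3:108040408-108044894, and differed mainly by strain. Gstm7, at chr3:107926334-107931817, had the largest strain difference of any member, between C57BL/6J and the other two strains. In C57BL/6J, Gstm7 was 4.13 to 6.01 CPM (median 5.25) in females and 3.08 to 4.99 CPM (median 3.98) in males. In CAST/EiJ, Gstm7 was 24.5 to 33.8 CPM (median 27.7) in females and 17.5 to 24.04 CPM (median 19.99) in males, and in NZO/HlLtJ 21.5 to 27.2 CPM (median 24.5) in females and 23.3 to 33.5 CPM (median 27.8) in males. All CAST/EiJ and NZO/HlLtJ libraries lay well above all C57BL/6J libraries. Gstm7 was 5.28-fold higher in CAST/EiJ and 5.86-fold higher in NZO/HlLtJ, which are log2 differences of 2.40 (SE 0.06, adjusted p = 6.81e-31) and 2.55 (SE 0.06, adjusted p = 3.28e-31). In CAST/EiJ, Gstm7 was higher in females by 0.52 (adjusted p = 2.17e-06), whereas in NZO/HlLtJ the value was -0.19 (adjusted p = 0.0403), a call made in 7 of 16 fits that left out 1 library. NZO/HlLtJ against CAST/EiJ gave 0.15 (adjusted p = 0.0227) over both sexes, with a lower median in females and a higher one in males, and this call was lost without NZO/HlLtJ male 44% fat library 3 (adjusted p = 0.0526). The interaction between these strains was -0.71 (adjusted p = 1.17e-05). Gstm1 was 216 to 275 CPM (median 265) in females and 281 to 364 CPM (median 335) in males in C57BL/6J. In CAST/EiJ, Gstm1 was 489 to 646 CPM (median 574) in females and 525 to 704 CPM (median 578) in males, and in NZO/HlLtJ 462 to 571 CPM (median 544) in females and 573 to 685 CPM (median 644) in males. C57BL/6J was again the low strain with no overlap, at 1.001 (adjusted p = 2.86e-24) for CAST/EiJ and 1.02 (adjusted p = 7.92e-24) for NZO/HlLtJ against it. Gstm1 shares 28.8% of its 31-base stretches with other transcripts, chiefly the pseudogene Gstm2-ps1.

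Gstm2 ordered the strains differently. In C57BL/6J, Gstm2 was 31.9 to 43.2 CPM (median 37.6) in females and 26.1 to 32.1 CPM (median 28.9) in males. In CAST/EiJ, Gstm2 was 54.7 to 68.3 CPM (median 63.01) in females and 35.9 to 44.5 CPM (median 39.9) in males, and in NZO/HlLtJ 17.4 to 21.5 CPM (median 19.8) in females and 12.2 to 15.8 CPM (median 14.1) in males. Within each sex the order CAST/EiJ, C57BL/6J, NZO/HlLtJ held without overlap. Gstm2 was 0.58 (adjusted p = 2.14e-16) in CAST/EiJ and -0.99 (adjusted p = 3.39e-23) in NZO/HlLtJ against C57BL/6J, and higher in females by 0.39 to 0.68 on the log2 scale. Gstm5 was high in NZO/HlLtJ males, at 90.2 to 148 CPM (median 107), against 54.8 to 80.6 CPM (median 68.6) in NZO/HlLtJ females. These males lay above all other libraries. In C57BL/6J, Gstm5 was 61.4 to 68.4 CPM (median 65.8) in females and 56.8 to 69.9 CPM (median 63.9) in males, and in CAST/EiJ 51.6 to 87.5 CPM (median 68.2) in females and 51.8 to 68.8 CPM (median 59.7) in males. Its sex difference was -0.76 (adjusted p = 1.8e-11) in NZO/HlLtJ, 0.22 (adjusted p = 0.0161) in CAST/EiJ and 0.03 (adjusted p = 0.81) in C57BL/6J, with an interaction of -0.78 (adjusted p = 9.72e-07) between NZO/HlLtJ and C57BL/6J. The CAST/EiJ call was lost without the male 10% fat library 2 (adjusted p = 0.0856). Gstm4 rose from 8.14 to 11.6 CPM (median 10.4) in C57BL/6J females and 9.58 to 12.3 CPM (median 10.6) in males to 22.8 to 25.5 CPM (median 23.3) and 19.7 to 32.9 CPM (median 24.98) in NZO/HlLtJ. CAST/EiJ lay between, at 12.5 to 17.02 CPM (median 14.2) in females and 13.5 to 17.6 CPM (median 16.1) in males. Gstm4 was 1.21 (SE 0.05, adjusted p = 8.05e-23) in NZO/HlLtJ against C57BL/6J and was called for sex in no strain. Gstm6 stayed at 0.253 to 2.08 CPM and was lower in NZO/HlLtJ than in C57BL/6J, with a log2 difference of -0.84 (adjusted p = 4.5e-06).

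Gstp1, the pi class transferase, at chr19:4035407-4037921, was higher in males in every strain, and the gap was widest in CAST/EiJ. In C57BL/6J, Gstp1 was 56.4 to 70.4 CPM (median 62.6) in females and 78.1 to 111 CPM (median 91.2) in males. In CAST/EiJ, Gstp1 was 34.1 to 42.1 CPM (median 38.1) in females and 102 to 161 CPM (median 114) in males, and in NZO/HlLtJ 48.1 to 61.6 CPM (median 51.5) in females and 52.3 to 78.95 CPM (median 62.6) in males. CAST/EiJ females lay below all other libraries, while the sexes overlapped in NZO/HlLtJ. Females minus males gave -0.57 (SE 0.06, adjusted p = 3.5e-10), -1.67 (SE 0.07, adjusted p = 6.78e-24) and -0.26 (SE 0.06, adjusted p = 0.000463) in C57BL/6J, CAST/EiJ and NZO/HlLtJ. The interaction was -1.09 (adjusted p = 1.92e-12) for CAST/EiJ against C57BL/6J and 1.41 (adjusted p = 7.38e-16) for NZO/HlLtJ against CAST/EiJ. With its neighbour Gstp2, with which Gstp1 shares most of the 38.5% of stretches it has in common with other transcripts, the sum was 37.5 to 47.1 CPM in CAST/EiJ females and 111 to 173 CPM in males.

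Gsto1, the omega class enzyme that reduces dehydroascorbate and arsenic compounds, at chr19:47854970-47864790, was higher in females. In C57BL/6J, Gsto1 was 44.7 to 55.6 CPM (median 49.3) in females and 15.7 to 24.3 CPM (median 18.5) in males. In CAST/EiJ, Gsto1 was 67.3 to 82.8 CPM (median 75.3) in females and 41.8 to 87.4 CPM (median 64.9) in males, and in NZO/HlLtJ 36.1 to 52.7 CPM (median 41.5) in females and 12.7 to 19.96 CPM (median 14.8) in males. The sexes were separate in C57BL/6J and NZO/HlLtJ and overlapped in CAST/EiJ, whose males lay above all males of the other strains. The sex difference was 1.37 (SE 0.07, adjusted p = 4.99e-20), 0.36 (SE 0.07, adjusted p = 2.84e-05) and 1.47 (SE 0.07, adjusted p = 3.52e-21), and that of CAST/EiJ was smaller than that of C57BL/6J with an interaction of -1.003 (adjusted p = 1.85e-10). Gsto1 was 2.17-fold higher in CAST/EiJ than in C57BL/6J at a log2 difference of 1.12 (adjusted p = 2.83e-23). Gstk1, the kappa class enzyme of mitochondria and peroxisomes, at chr6:42245935-42250447, was 79.7 to 90.9 CPM (median 87.4) in females and 66.6 to 81.6 CPM (median 74.7) in males in CAST/EiJ. In C57BL/6J, Gstk1 was 27.3 to 37.6 CPM (median 32.1) in females and 26.002 to 33.8 CPM (median 31.003) in males, and in NZO/HlLtJ 27.4 to 32.5 CPM (median 29.2) in females and 25.1 to 31.7 CPM (median 26.4) in males. CAST/EiJ exceeded both other strains without overlap, with 1.34 (SE 0.04, adjusted p = 1.18e-29) against C57BL/6J. The sex calls of Gstk1 were small, 0.23 (adjusted p = 0.00058) in CAST/EiJ and 0.13 (adjusted p = 0.0412) in NZO/HlLtJ, the last made in 7 of 16 fits that left out 1 library.

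The theta class genes on chromosome 10 moved in opposite directions in CAST/EiJ. Gstt3, at chr10:75774115-75781414, was 113 to 160.4 CPM (median 128) in females and 83.99 to 126 CPM (median 121) in males in CAST/EiJ. In C57BL/6J, Gstt3 was 38.2 to 44.4 CPM (median 41.03) in females and 31.9 to 38.8 CPM (median 35.9) in males, and in NZO/HlLtJ 39.9 to 45.6 CPM (median 43.03) in females and 31.5 to 36.5 CPM (median 35.2) in males. All CAST/EiJ libraries lay above all others, by 1.66 (SE 0.04, adjusted p = 1.98e-33) against C57BL/6J. Gstt1, which lies beside it at chr10:75783813-75798584, was 33.96 to 44.1 CPM (median 39.2) in females and 17.6 to 30.5 CPM (median 21.9) in males in CAST/EiJ. In C57BL/6J, Gstt1 was 55.9 to 69.4 CPM (median 61.7) in females and 48.7 to 66.04 CPM (median 56.4) in males, and in NZO/HlLtJ 53.4 to 67.5 CPM (median 60.7) in females and 41.5 to 51.8 CPM (median 46.5) in males. Here CAST/EiJ was the low strain, at -1.02 (SE 0.05, adjusted p = 3.51e-21) against C57BL/6J, and its females exceeded its males by 0.81 (adjusted p = 4.29e-12). That sex difference was larger in CAST/EiJ than in C57BL/6J by 0.66 (adjusted p = 4.94e-06). Gstt2 was higher in CAST/EiJ than in C57BL/6J by 0.81 (adjusted p = 1.34e-18), and Gstz1, which also serves tyrosine breakdown, by 0.42 (adjusted p = 2.23e-17).

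The microsomal transferases are membrane proteins that also reduce lipid hydroperoxides. Mgst3, at chr1:167371966-167393841, was 141 to 177 CPM (median 159.98) in females and 155 to 173 CPM (median 166) in males in CAST/EiJ. In C57BL/6J, Mgst3 was 64.6 to 73.3 CPM (median 69.7) in females and 40.6 to 52.2 CPM (median 45.1) in males, and in NZO/HlLtJ 72.5 to 85.6 CPM (median 75.5) in females and 40.3 to 54.5 CPM (median 46.6) in males. CAST/EiJ exceeded the rest, and females exceeded males without overlap in the other two strains. Mgst3 rose by 1.52 (SE 0.04, adjusted p = 3.08e-31) in CAST/EiJ against C57BL/6J. Its sex difference was 0.59 (adjusted p = 9.2e-12) in C57BL/6J, 0.71 (adjusted p = 2.11e-14) in NZO/HlLtJ and -0.06 (adjusted p = 0.399) in CAST/EiJ, and the CAST/EiJ value differed from that of C57BL/6J by -0.65 (adjusted p = 4.47e-08). Mgst1 was higher in females by 0.47 to 1.05 on the log2 scale in the 3 strains, and its medians were highest in C57BL/6J, with -0.97 (adjusted p = 2.54e-19) in CAST/EiJ and -0.99 (adjusted p = 5.5e-19) in NZO/HlLtJ against it.

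**Figure D4:**
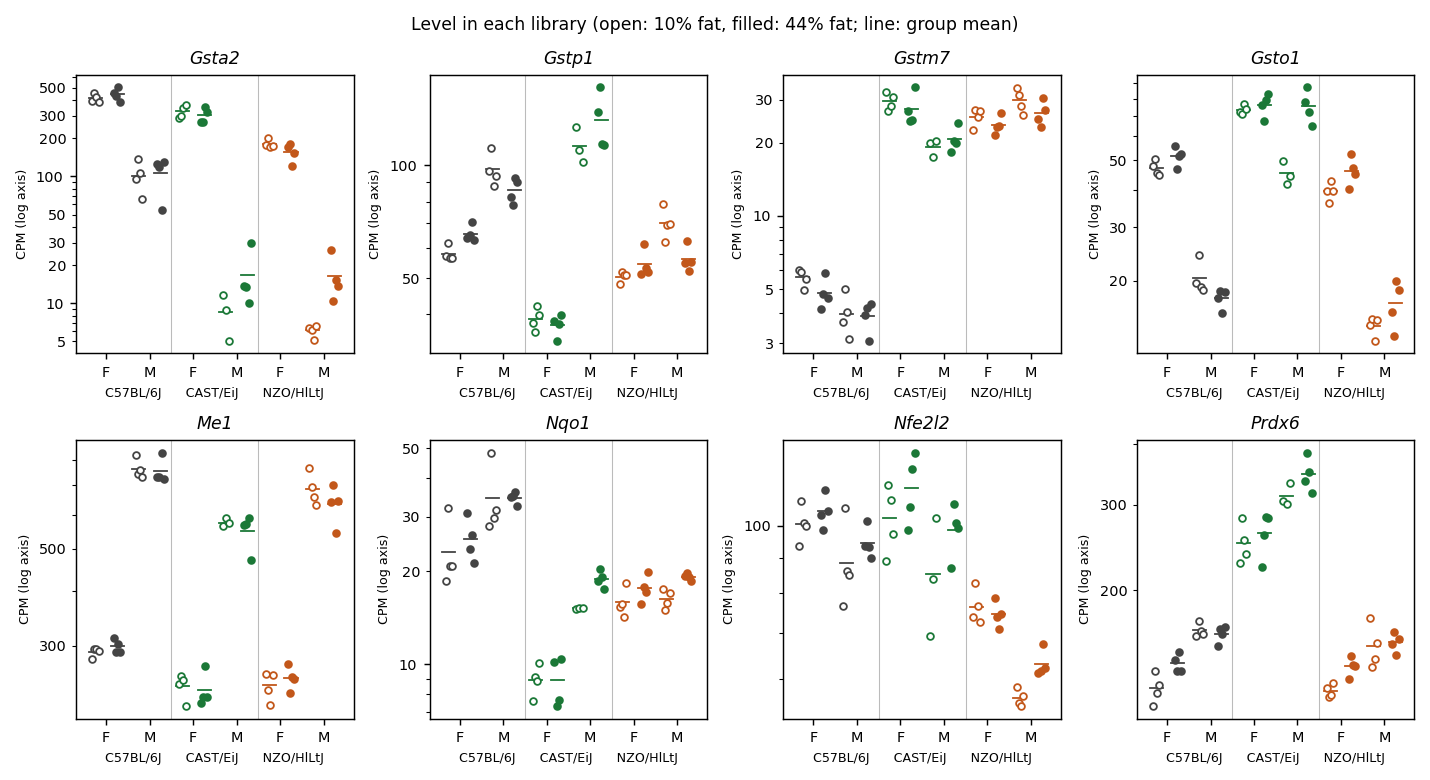
CPM on a log axis in each library for 8 members, by strain and sex, with open points for 10% fat, filled points for 44% fat and a line at each group mean. Gsta2 separates the sexes in every strain, Gstm7 separates C57BL/6J from the rest, and Gsto1 on 10% fat is lower in CAST/EiJ males than on 44% fat.

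Glutathione is made by glutamate-cysteine ligase, whose catalytic and modifier subunits are Gclc and Gclm, followed by glutathione synthetase (Gss). In C57BL/6J, Gclm was 192 to 284 CPM (median 234) in females and 279 to 345 CPM (median 314) in males. In CAST/EiJ, Gclm was 296 to 399 CPM (median 328) in females and 399 to 582 CPM (median 453) in males, and in NZO/HlLtJ 188 to 242 CPM (median 229) in females and 239 to 296 CPM (median 269) in males. CAST/EiJ lay highest within each sex without overlap, and the sexes overlapped in the other two strains. Gclm was higher in CAST/EiJ than in C57BL/6J by 0.54 (SE 0.04, adjusted p = 8.38e-15) and higher in males of every strain, with females minus males from -0.50 to -0.28. Gclc varied more between libraries, at 179 to 434 CPM (median 309) in females and 178 to 390.1 CPM (median 263) in males in C57BL/6J. In CAST/EiJ, Gclc was 296 to 491 CPM (median 338) in females and 379.9 to 631 CPM (median 470.1) in males, and in NZO/HlLtJ 153 to 339 CPM (median 254) in females and 156 to 306 CPM (median 209.8) in males. CAST/EiJ males lay above NZO/HlLtJ males, and the other pairs of strains overlapped within each sex. Against C57BL/6J, Gclc gave 0.58 (SE 0.11, adjusted p = 1.03e-05) in CAST/EiJ and -0.29 (SE 0.11, adjusted p = 0.0223) in NZO/HlLtJ. The NZO/HlLtJ call was lost without C57BL/6J female 10% fat library 1 (adjusted p = 0.0669) or male 10% fat library 1 (adjusted p = 0.0595), and on 10% fat alone. In CAST/EiJ females minus males gave -0.43 (SE 0.15, adjusted p = 0.0186), a call lost without male 10% fat library 3 (adjusted p = 0.0768).

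Gss was 142 to 174 CPM (median 158) in females and 241 to 266 CPM (median 258) in males in C57BL/6J. In CAST/EiJ, Gss was 121 to 164 CPM (median 141) in females and 186 to 219 CPM (median 208) in males, and in NZO/HlLtJ 175 to 201 CPM (median 187) in females and 229.6 to 293 CPM (median 247) in males. Males lay above females without overlap in each strain, and females minus males was -0.73 (adjusted p = 1.44e-16), -0.54 (adjusted p = 2.68e-12) and -0.43 (adjusted p = 2.28e-10). Ggt1, the gamma-glutamyl transferase of the proximal tubule brush border that starts the breakdown of filtered glutathione, at chr10:75561604-75586200, was 509.7 to 598 CPM (median 535) in females and 943 to 1210.2 CPM (median 1046) in males in C57BL/6J. In CAST/EiJ, Ggt1 was 409 to 567 CPM (median 497) in females and 1005 to 1347 CPM (median 1180.1) in males, and in NZO/HlLtJ 469 to 632 CPM (median 532) in females and 871 to 1276 CPM (median 1039) in males. Every male library of the study exceeded every female library. Ggt1 differed by -0.97 (SE 0.06, adjusted p = 8.87e-17), -1.22 (SE 0.06, adjusted p = 8.97e-20) and -0.97 (SE 0.06, adjusted p = 3.66e-17), females minus males. No strain comparison called it. Gsr, glutathione reductase, was 94.9 to 135 CPM (median 109) in females and 111 to 149.8 CPM (median 125) in males in C57BL/6J. In CAST/EiJ, Gsr was 94.2 to 117 CPM (median 104) in females and 122 to 145 CPM (median 126) in males, and in NZO/HlLtJ 81.5 to 114 CPM (median 101) in females and 108 to 133 CPM (median 121) in males. The sexes were separate in CAST/EiJ and overlapped elsewhere, with -0.20 (adjusted p = 0.0164), -0.31 (adjusted p = 0.000335) and -0.24 (adjusted p = 0.00353) for females minus males. The C57BL/6J call was lost without male 10% fat library 2 (adjusted p = 0.0908). Slc7a11, the cystine and glutamate exchanger and a textbook NRF2 target, was near the limit of detection. It ranged from 0.164 to 0.381 CPM (median 0.272) in C57BL/6J females and 0.0248 to 0.366 CPM (median 0.219) in males to 0.164 to 0.511 CPM (median 0.371) and 0.231 to 0.481 CPM (median 0.355) in CAST/EiJ. NZO/HlLtJ gave 0.0671 to 1.14 CPM (median 0.199) in females and 0.0460 to 0.376 CPM (median 0.245) in males. All groups overlapped, and the call in CAST/EiJ against C57BL/6J, 0.68 (SE 0.29, adjusted p = 0.0344), was made in 23 of 31 fits that left out 1 library.

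NADPH for these reactions comes from the pentose phosphate pathway (G6pdx and Pgd, fed by Tkt and Taldo1) and from malic enzyme (Me1). Me1, at chr9:86581371-86695953, whose promoter stretch with TGACTCAGC is shown above, was 279 to 312 CPM (median 293) in females and 723 to 833 CPM (median 738) in males in C57BL/6J. In CAST/EiJ, Me1 was 218 to 269.5 CPM (median 237) in females and 471 to 590.4 CPM (median 569) in males, and in NZO/HlLtJ 219.6 to 272 CPM (median 253) in females and 544 to 767 CPM (median 652) in males. Every male exceeded every female of all strains. Males were 2.61-fold, 2.34-fold and 2.66-fold higher in C57BL/6J, CAST/EiJ and NZO/HlLtJ, with log2 differences of -1.38 ± 0.05, -1.22 ± 0.05 and -1.41 ± 0.05 (SE) for females minus males and adjusted p of at most 1.89e-22. Against C57BL/6J, Me1 was -0.37 (adjusted p = 8.28e-12) in CAST/EiJ and -0.24 (adjusted p = 7.15e-07) in NZO/HlLtJ. Me1 shares 36.9% of its 31-base stretches with other transcripts, most often the predicted gene Gm7049. Tkt, transketolase, alone among these genes was called higher in females. In C57BL/6J, Tkt was 172 to 234 CPM (median 185) in females and 148 to 180.3 CPM (median 162) in males. In CAST/EiJ, Tkt was 218 to 295 CPM (median 259) in females and 184 to 231 CPM (median 193) in males, and in NZO/HlLtJ 152 to 214 CPM (median 185) in females and 139.7 to 192 CPM (median 165) in males. The sexes overlapped in each strain, and females minus males was 0.26 (adjusted p = 0.000182), 0.35 (adjusted p = 2.68e-06) and 0.15 (adjusted p = 0.0265), the last called in 12 of 16 fits that left out 1 library. Pgd and Taldo1 were higher in males in each strain, with females minus males from -0.34 to -0.19 for Pgd and from -0.45 to -0.38 for Taldo1. G6pdx was called for sex in CAST/EiJ alone at -0.32 (adjusted p = 2.47e-06). In NZO/HlLtJ its median was higher in females, at 29.3 CPM against 27.2 CPM in males, without a call.

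The enzymes that remove superoxide and peroxides were higher in males. Of the 8, Gpx1, Gpx4, Cat, Sod1, Prdx1 and Prdx6 were called in all 3 strains, Sod2 in 2 and Gpx3 in none. Prdx6, a peroxiredoxin that reduces phospholipid hydroperoxides, at chr1:161240112-161251219, was 116 to 149 CPM (median 136) in females and 153 to 173 CPM (median 164) in males in C57BL/6J. In CAST/EiJ, Prdx6 was 223 to 283 CPM (median 257) in females and 301 to 384 CPM (median 332) in males, and in NZO/HlLtJ 121 to 147 CPM (median 129.9) in females and 139 to 175 CPM (median 155) in males. CAST/EiJ exceeded both other strains without overlap. Prdx6 was 1.96-fold higher in CAST/EiJ than in C57BL/6J at a log2 difference of 0.97 (SE 0.03, adjusted p = 1.04e-26), and lower in females of each strain, with log2 differences from -0.37 to -0.23. Sod1, the cytosolic superoxide dismutase, was 220.5 to 247 CPM (median 239) in females and 294 to 385 CPM (median 333) in males in C57BL/6J. In CAST/EiJ, Sod1 was 213 to 319 CPM (median 272) in females and 338 to 402 CPM (median 362) in males, and in NZO/HlLtJ 203 to 229.9 CPM (median 218) in females and 214 to 361 CPM (median 281) in males. The sexes overlapped in NZO/HlLtJ alone. Females minus males was -0.53 (adjusted p = 1.99e-09), -0.45 (adjusted p = 7.97e-08) and -0.34 (adjusted p = 7.56e-06). Gpx3, the plasma glutathione peroxidase made by the proximal tubule, at chr11:54902453-54910377, was 13688 to 16395 CPM (median 15040.3) in females and 12442 to 15949 CPM (median 14052) in males in C57BL/6J. In CAST/EiJ, Gpx3 was 11027 to 14645 CPM (median 12666) in females and 12019 to 13455 CPM (median 12985) in males, and in NZO/HlLtJ 9076 to 12153 CPM (median 10006) in females and 7713 to 12341 CPM (median 10155) in males. NZO/HlLtJ lay below every C57BL/6J library. Gpx3 fell by 0.50 on the log2 scale in NZO/HlLtJ against C57BL/6J (adjusted p = 5.38e-14). Cat was lower in females, with log2 differences of -0.45 ± 0.04, -0.41 ± 0.05 and -0.35 ± 0.04 (SE) in C57BL/6J, CAST/EiJ and NZO/HlLtJ. Gpx4 was higher in CAST/EiJ than in C57BL/6J by 0.48 (adjusted p = 8.08e-15), and shares 38.9% of its 31-base stretches with other transcripts, above all a pseudogene. Prdx1, the other member with TGACTCAGC in its promoter window, was highest in C57BL/6J males, at 629 to 743 CPM (median 669.9) against 455 to 522 CPM (median 481) in C57BL/6J females.

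The textbook NRF2 targets did not share a strain order. Nqo1, a quinone reductase, at chr8:107388225-107403206, was 18.5 to 31.9 CPM (median 22.4) in females and 27.998 to 48.4 CPM (median 33.6) in males in C57BL/6J. In CAST/EiJ, Nqo1 was 7.35 to 10.4 CPM (median 8.99) in females and 15.1 to 20.4 CPM (median 17.6) in males, and in NZO/HlLtJ 14.3 to 19.9 CPM (median 16.4) in females and 14.96 to 19.7 CPM (median 18.1) in males. CAST/EiJ females lay below all other libraries and C57BL/6J males above all males of the other strains. Nqo1 was -1.23 (SE 0.07, adjusted p = 3.44e-18) in CAST/EiJ and -0.73 (SE 0.07, adjusted p = 2.16e-11) in NZO/HlLtJ against C57BL/6J. It was lower in females, with -0.53 (adjusted p = 2.01e-05) in C57BL/6J and -0.92 (adjusted p = 2.19e-09) in CAST/EiJ, with -0.08 (adjusted p = 0.517) in NZO/HlLtJ and an interaction of 0.84 (adjusted p = 3.54e-05) between NZO/HlLtJ and CAST/EiJ. Hmox1, heme oxygenase, was 12.9 to 18.9 CPM (median 15.2) in females and 22.3 to 38.5 CPM (median 28.5) in males in C57BL/6J. In CAST/EiJ, Hmox1 was 14.3 to 76.3 CPM (median 18.1) in females and 13.7 to 30.9 CPM (median 18.8) in males, and in NZO/HlLtJ 10.498 to 15.1 CPM (median 12.3) in females and 16.7 to 24.2 CPM (median 19.8) in males. The sexes were separate in C57BL/6J and NZO/HlLtJ, and 1 CAST/EiJ female stood far above the rest. Hmox1 was lower in females, with -0.94 (adjusted p = 0.000558) and -0.71 (adjusted p = 0.0067) in those strains, and gave 0.17 (adjusted p = 0.568) in CAST/EiJ. The sex difference of CAST/EiJ differed from that of C57BL/6J by 1.11 (adjusted p = 0.0134) over all libraries and by 0.66 (adjusted p = 0.0316) without that female (44% fat, library 3). For NZO/HlLtJ against C57BL/6J, Hmox1 gave -0.38 (adjusted p = 0.0433), a call made in 14 of 32 fits that left out 1 library.

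Txnrd1, the cytosolic thioredoxin reductase, was 124 to 144 CPM (median 137) in females and 149.6 to 180.1 CPM (median 156) in males in C57BL/6J. In CAST/EiJ, Txnrd1 was 133 to 197 CPM (median 145) in females and 152 to 197 CPM (median 177) in males, and in NZO/HlLtJ 126 to 142 CPM (median 130.2) in females and 128 to 167 CPM (median 142) in males. CAST/EiJ was called above C57BL/6J and above NZO/HlLtJ, each in 31 of 31 fits that left out 1 library, though the strains overlapped within each sex. Sex differences were small beside the spread outside C57BL/6J. Females minus males was -0.25 (adjusted p = 0.000162) in C57BL/6J and -0.18 (adjusted p = 0.00668) in CAST/EiJ, the last lost without male 10% fat library 3 (adjusted p = 0.0878), and -0.12 (adjusted p = 0.0617) in NZO/HlLtJ. Srxn1, sulfiredoxin, which repairs overoxidised peroxiredoxins, was 46.1 to 57.8 CPM (median 51.7) in females and 44.03 to 54.4 CPM (median 49.2) in males in C57BL/6J. In CAST/EiJ, Srxn1 was 44.9 to 56.3 CPM (median 49.7) in females and 44.9 to 64.7 CPM (median 53.04) in males, and in NZO/HlLtJ 43.2 to 57.3 CPM (median 46.8) in females and 38.7 to 44.7 CPM (median 40.5) in males. NZO/HlLtJ males lay below every CAST/EiJ library and every C57BL/6J female and overlapped the remaining groups. Srxn1 was lower in NZO/HlLtJ than in C57BL/6J, with -0.19 (adjusted p = 1.36e-05) on the log2 scale, and higher in NZO/HlLtJ females than males by 0.22 (adjusted p = 0.000161).

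Nfe2l2, which encodes NRF2, at chr2:75675513-75704641, was lowest in NZO/HlLtJ. In C57BL/6J, Nfe2l2 was 93.4 to 113 CPM (median 102) in females and 76.6 to 106 CPM (median 91.5) in males. In CAST/EiJ, Nfe2l2 was 89.1 to 128 CPM (median 108) in females and 69.3 to 108 CPM (median 99.4) in males, and in NZO/HlLtJ 70.9 to 82.7 CPM (median 74.2) in females and 54.9 to 67.4 CPM (median 59.8) in males. NZO/HlLtJ lay below both other strains within each sex without overlap. Its difference was -0.50 (SE 0.04, adjusted p = 1.59e-13) against C57BL/6J and -0.54 (SE 0.04, adjusted p = 1.27e-14) against CAST/EiJ, whereas CAST/EiJ against C57BL/6J gave 0.04 (adjusted p = 0.452). Females exceeded males by 0.16 (adjusted p = 0.0218), 0.23 (adjusted p = 0.00133) and 0.34 (adjusted p = 3.58e-06) in C57BL/6J, CAST/EiJ and NZO/HlLtJ, the first lost without male 10% fat library 1 (adjusted p = 0.0606). Keap1, the sensor, at chr9:21229730-21239332, ran the other way between the sexes. In C57BL/6J, Keap1 was 27.9 to 30.9 CPM (median 29.5) in females and 33.8 to 38.05 CPM (median 36.6) in males. In CAST/EiJ, Keap1 was 26.9 to 29.1 CPM (median 28.03) in females and 29.9 to 36.3 CPM (median 32.2) in males, and in NZO/HlLtJ 29.4 to 34.4 CPM (median 31.1) in females and 31.8 to 38.3 CPM (median 35.02) in males. Males lay above females without overlap in C57BL/6J and CAST/EiJ. Females minus males was -0.30 (adjusted p = 1.58e-08), -0.21 (adjusted p = 1.81e-05) and -0.15 (adjusted p = 0.00119). RNA levels do not measure NRF2 protein or its activity.

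The sex difference itself differed between NZO/HlLtJ and C57BL/6J for 10 of the 43 tested members, against 4.95% of all genes. It differed between CAST/EiJ and C57BL/6J for 14 of the 43, against 13.2% of all genes. Between NZO/HlLtJ and CAST/EiJ it differed for 13 of the 43, against 14.3% of all genes. Transferases, 18 of the 43 tested members, gave 8 of the 10, 9 of the 14 and 9 of the 13 calls, and the rest were Gss and Prdx1, then Gclc, G6pdx, Gpx4, Prdx1 and Hmox1, then G6pdx, Gpx4, Nqo1 and Srxn1. Between CAST/EiJ and C57BL/6J the calls of G6pdx, Gpx4 and Gclc were made in 11 of 31, 20 of 31 and 27 of 31 fits that left out 1 library. Between NZO/HlLtJ and C57BL/6J those of Prdx1, Gstp1 and Mgst1 were made in 28 of 32, 30 of 32 and 31 of 32.

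Diet moved few of these genes. In C57BL/6J, 44% against 10% fat called 0 members (4 at an unadjusted p under 0.05, 0 by DESeq2 and 0 by limma on the variance-stabilized matrix), against 0.0266% of all genes. In CAST/EiJ it called 1 member, Gsto1 (background 0.99%), and in NZO/HlLtJ 5 members, Gpx3, Gsto1, Tkt and Srxn1 higher and Sod1 lower on 44% fat (11.6%, background 3.62%, or 1.98% higher and 1.64% lower). The members' median log2 fold change was 0.01, 0.00 and 0.06 in C57BL/6J, CAST/EiJ and NZO/HlLtJ, against 0.001, -0.0025 and -0.0016 over all genes.

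In CAST/EiJ males, Gsto1 was 49.8, 41.8 and 44.4 CPM on 10% fat and 78.2, 87.4, 72.5 and 64.9 CPM on 44% fat. In CAST/EiJ females it was 72.2, 71.01, 77.02 and 74.3 CPM on 10% fat and 76.4, 67.3, 79.3 and 82.8 CPM on 44% fat. The diets did not overlap in males and did in females; the difference between the sexes in this response was not tested. Over both sexes Gsto1 rose by 0.38 (SE 0.07, adjusted p = 0.00338), was called in 15 of 15 fits that left out 1 library, and was higher within each ID run, by 0.37, 0.48 and 0.34. In NZO/HlLtJ females Gsto1 was 39.6, 36.1, 42.7 and 39.7 CPM on 10% fat and 40.3, 52.7, 47.04 and 45.1 CPM on 44% fat, and in males 14.2, 14.9, 12.7 and 14.8 CPM and 15.8, 13.1, 19.96 and 18.6 CPM. The diets overlapped in both sexes of NZO/HlLtJ, and the rise of 0.24 (SE 0.07, adjusted p = 0.0395) was called in 5 of 16 fits that left out 1 library.

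Gpx3 in NZO/HlLtJ females was 9493, 9076, 10088 and 9336 CPM on 10% fat and 9924, 11469.5, 12153 and 11386 CPM on 44% fat. In NZO/HlLtJ males it was 10241, 9224, 7713 and 9551 CPM and 12341, 10069.9, 10456 and 11224 CPM. Most libraries on 44% fat lay above those on 10% fat, with an overlap in each sex. Gpx3 rose by 0.25 (SE 0.06, adjusted p = 0.00603) and was called in 16 of 16 fits that left out 1 library, but not when NZO/HlLtJ was fitted alone (adjusted p = 0.0614). The diet effect on Gpx3 was larger in NZO/HlLtJ than in CAST/EiJ by 0.31 (SE 0.08, adjusted p = 0.04).

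Sod1 in NZO/HlLtJ males was 361, 298, 299.9 and 279 CPM on 10% fat and 239, 284, 214 and 240.1 CPM on 44% fat. Females gave 212, 224, 229.9 and 226 CPM and 203, 226, 212 and 203 CPM. The diets overlapped in each sex, and Sod1 fell, with -0.21 (SE 0.06, adjusted p = 0.0417). Srxn1 in NZO/HlLtJ females was 43.2, 44.7, 43.7 and 45.1 CPM on 10% fat and 48.6, 57.3, 53.2 and 48.4 CPM on 44% fat. Males gave 41.4, 38.7, 38.8 and 39.7 CPM and 44.7, 44.4, 39.2 and 41.2 CPM. The diets did not overlap in females and did in males, and the rise was 0.16 (SE 0.05, adjusted p = 0.0483). Tkt in NZO/HlLtJ females was 179, 182, 152 and 164 CPM on 10% fat and 188, 214, 195.1 and 192 CPM on 44% fat. Males gave 169, 158, 139.7 and 160.5 CPM and 192, 175, 159 and 173 CPM. Females again showed no overlap and males did, with a rise of 0.19 (SE 0.06, adjusted p = 0.0442). The Sod1, Tkt and Srxn1 calls were made in 5 of 16, 6 of 16 and 3 of 16 fits that left out 1 NZO/HlLtJ library. Sex and diet coincided among the NZO/HlLtJ libraries of ID runs 81 and 89, which leaves run 77 as the source of a within-run value: 0.20 for Gpx3, 0.13 for Gsto1, -0.18 for Sod1, 0.16 for Tkt and 0.21 for Srxn1. Of the 4 collecting duct markers, 3 were called lower on 44% fat in NZO/HlLtJ. Their sum over all 4 overlapped between the diets, at 109 to 204 CPM (median 147) on 10% fat and 109 to 209 CPM (median 159) on 44% fat. The part of these markers in the members' diet differences was not tested.

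Diet effects differed between NZO/HlLtJ and CAST/EiJ for 3 members (background 1.28%): Gpx3, Tkt at 0.33 (adjusted p = 0.0306) and Ggt1 at -0.35 (adjusted p = 0.0384). For Ggt1 neither strain's own diet effect was called, at -0.19 in NZO/HlLtJ and 0.16 in CAST/EiJ. Those calls were made in 16 of 31, 25 of 31 and 20 of 31 fits that left out 1 library. NZO/HlLtJ against C57BL/6J and CAST/EiJ against C57BL/6J called 0 and 0 members by edgeR (5 and 8 at an unadjusted p under 0.05, 0 and 1 by DESeq2, 0 and 0 by limma), beside 0.0373% and 0.0532% of all genes.

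**Figure D5:**
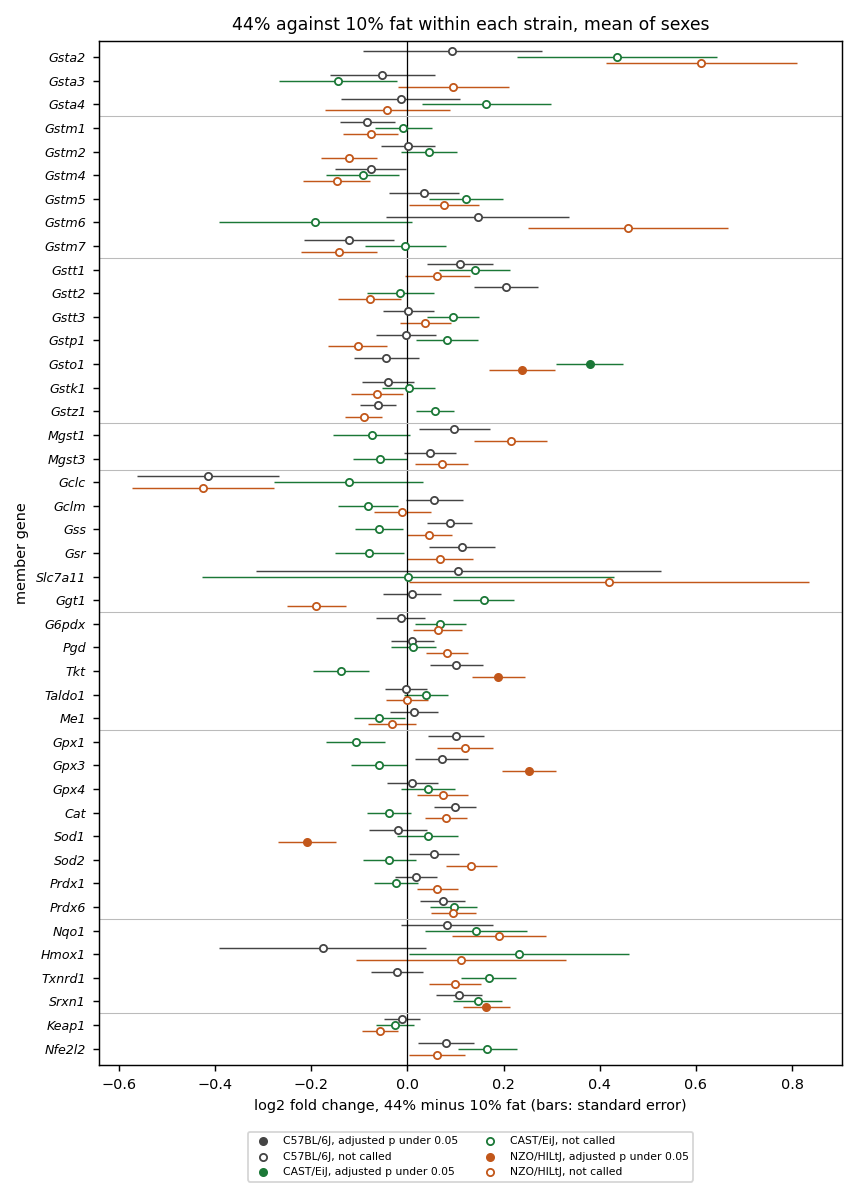
Log2 fold change of each tested member, 44% minus 10% fat, as the mean of both sexes in C57BL/6J, CAST/EiJ and NZO/HlLtJ (x axis), with genes grouped by role on the y axis; bars are standard errors and filled points have an adjusted p under 0.05. Most points are open and near 0, and the filled ones are Gsto1 in CAST/EiJ and Gpx3, Gsto1, Tkt, Srxn1 and Sod1 in NZO/HlLtJ.

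63 further genes of the pathway were followed as well, of which 60 were tested. Between females and males, 45 (22 higher, 23 lower) were called in C57BL/6J, 45 (18 higher, 27 lower) in CAST/EiJ and 44 (19 higher, 25 lower) in NZO/HlLtJ, higher meaning higher in females, beside 47.9%, 47.6% and 49.9% of all genes. The strain comparisons called 43 (16 higher, 27 lower) for NZO/HlLtJ against C57BL/6J, 49 (32 higher, 17 lower) for CAST/EiJ against C57BL/6J and 48 (17 higher, 31 lower) for NZO/HlLtJ against CAST/EiJ, beside 52.2%, 71.4% and 70% of all genes. Cbr1, a carbonyl reductase, was 205 to 269.8 CPM (median 223) in C57BL/6J females and 12.4 to 19.4 CPM (median 17.8) in males. It was higher in females by 3.71 (adjusted p = 1.43e-31), 4.32 (adjusted p = 7.66e-32) and 3.52 (adjusted p = 4.66e-31) in C57BL/6J, CAST/EiJ and NZO/HlLtJ. Abcc3, an exporter of conjugates, was higher in females by 6.24 (adjusted p = 8.84e-29), 4.26 (adjusted p = 2.41e-24) and 6.73 (adjusted p = 2.08e-29), and Lap3, an aminopeptidase, was lower in females, with -1.38 (adjusted p = 4.3e-24), -1.19 (adjusted p = 8.28e-22) and -0.91 (adjusted p = 1.39e-18). Aox1, an aldehyde oxidase, was 21.96 to 41.6 CPM (median 30.8) in females and 42.000 to 63.01 CPM (median 46.9) in males in CAST/EiJ. In C57BL/6J, Aox1 was 0.854 to 1.47 CPM (median 1.16) in females and 0.877 to 1.55 CPM (median 1.05) in males. Aox1 was 5.08 (adjusted p = 5.29e-36) in CAST/EiJ against C57BL/6J, and Gpx6 was -2.25 (adjusted p = 1.67e-27) and Dpep1, which cleaves the dipeptide from glutathione breakdown, 1.21 (adjusted p = 2.29e-26). Gsta1 was 5.09 (adjusted p = 2.66e-26) in the same comparison, with 58.6 to 84.2 CPM (median 71.3) in females and 1.28 to 4.82 CPM (median 2.22) in males in CAST/EiJ. Because Gsta2 shares 44.7% of its 31-base stretches with Gsta1, reads of these genes may be split, and the part of this in the Gsta1 difference was not tested. Diet called 5 (3 higher, 2 lower) of these genes in NZO/HlLtJ, beside 3.62% of all genes, led by Trim16 at 0.49 (adjusted p = 0.00165), Gpx6 at -0.44 (adjusted p = 0.00396), Idh1 at 0.26 (adjusted p = 0.00688) and Ggt6 at -0.37 (adjusted p = 0.0101).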

How the data were processed

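Polyadenylated RNA of 47 mouse kidney samples was sequenced. The deposited table holds expected counts per gene, of which 21% were not whole; they were rounded. The authors also deposited a log2-scale variance-stabilized matrix of the same libraries, used as an alternative. The submitters' processing notes name GRCm38 and DESeq2; the aligner and counter are not given in the sources used here. Gene coordinates come from the deposited annotation.

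Samples were grouped by the labels into 12 groups of strain, sex and diet. Genes passing filterByExpr (18786 of 22474) were fitted in edgeR 4.0.16 (R 4.3.3) with TMM scaling, a mean per group and a term for the run of ID numbers in the titles (first 2 digits 77, 81 or 89; 16, 16 and 15 libraries), by the robust quasi-likelihood test with 33 residual degrees of freedom. P-values were adjusted by Benjamini-Hochberg over all genes tested, with a threshold of 0.05, and a second rule asked for a fold of at least 1.5. Strain effects are equally weighted means over sex and diet, and sex and diet effects are means over the other factor. The code was tested on simulated data. DESeq2 1.42.0 and limma 3.58.1 were alternatives. Z-scores used the log2 CPM of edgeR with a prior count of 1, which is added to the counts and not to the CPM. Total counts of 34394546 to 58433712 per library set the precision; the lowest correlation within a group was 0.98.

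The members and gene lists were chosen with earlier results of these data known. Given in full were, per comparison, the 5 called members with the smallest adjusted p and the 3 with the largest change at an average log2 CPM of at least 1, plus Nfe2l2, Keap1 and the textbook targets; up to 4 other pathway genes per comparison were named by smallest adjusted p. Shared stretches of 31 bases were counted against all transcripts of the reference, and promoter windows came from RefSeq.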

Additional observations from a re-analysis of the deposited data

Results flagged for a closer look

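21 single libraries stood apart from the other 3 of their group, by Dixon's test on groups of 4, among 341 groups of 31 members; chance alone flags about 1 in 20 groups. Gsta2 was 53.9 CPM in library 3 of C57BL/6J males on 44% fat and 119 to 129.6 CPM in the other 3. Gsta4 was 76.97 CPM in library 4 of CAST/EiJ females on 10% fat and 42.4 to 48.3 CPM in the other 3. Gstm4 was 8.14 CPM in library 1 of C57BL/6J females on 44% fat and 10.4 to 10.8 CPM in the other 3. Gstm4 was 25.5 CPM in library 3 of NZO/HlLtJ females on 44% fat and 22.8 to 23.2 CPM in the other 3. Gstm5 was 51.6 CPM in library 4 of CAST/EiJ females on 10% fat and 66.5 to 68.4 CPM in the other 3. Gstm5 was 69.3 CPM in library 3 of NZO/HlLtJ females on 10% fat and 54.8 to 55.7 CPM in the other 3. Gstm5 was 148 CPM in library 1 of NZO/HlLtJ males on 10% fat and 106 to 112 CPM in the other 3. Gstp1 was 62.1 CPM in library 2 of C57BL/6J females on 10% fat and 56.4 to 57.2 CPM in the other 3. Gstt3 was 33.2 CPM in library 3 of C57BL/6J males on 44% fat and 35.98 to 36.2 CPM in the other 3. Gstk1 was 31.7 CPM in library 1 of NZO/HlLtJ males on 10% fat and 26.001 to 26.8 CPM in the other 3. Gclc was 411 CPM in library 4 of CAST/EiJ females on 44% fat and 329 to 338 CPM in the other 3.

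Gclm was 188 CPM in library 2 of NZO/HlLtJ females on 44% fat and 233 to 242 CPM in the other 3. Gsr was 130.4 CPM in library 2 of C57BL/6J females on 10% fat and 94.9 to 97.03 CPM in the other 3. Slc7a11 was 1.14 CPM in library 2 of NZO/HlLtJ females on 44% fat and 0.122 to 0.273 CPM in the other 3. Me1 was 833 CPM in library 3 of C57BL/6J males on 44% fat and 723 to 732 CPM in the other 3. Me1 was 269.5 CPM in library 3 of CAST/EiJ females on 44% fat and 221 to 229 CPM in the other 3. Tkt was 268 CPM in library 3 of CAST/EiJ females on 44% fat and 218 to 226 CPM in the other 3. Nqo1 was 31.9 CPM in library 2 of C57BL/6J females on 10% fat and 18.5 to 20.8 CPM in the other 3. Hmox1 was 76.3 CPM in library 3 of CAST/EiJ females on 44% fat and 14.8 to 21.4 CPM in the other 3. Txnrd1 was 142 CPM in library 4 of NZO/HlLtJ females on 10% fat and 126 to 127 CPM in the other 3. Nfe2l2 was 67.4 CPM in library 3 of NZO/HlLtJ males on 44% fat and 61.2 to 62.2 CPM in the other 3. In C57BL/6J males on 44% fat, library 3 holds the flags of Gsta2, Gstt3 and Me1, and in CAST/EiJ females on 44% fat library 3 holds those of Hmox1, Me1 and Tkt. Library 2 of NZO/HlLtJ females on 44% fat, with the Slc7a11 and Gclm flags, also had the highest sum of 3 lymphocyte markers, 9.73 CPM against at most 1.61 CPM elsewhere, and their part was not tested.

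The sex difference (log2, females minus males) was not the same in each pair of strains for the following members, by the interaction term of the edgeR fit. NZO/HlLtJ minus C57BL/6J gave 1.52 (adjusted p = 1.23e-08) for Gsta3, -0.78 (adjusted p = 9.72e-07) for Gstm5, 2.02 (adjusted p = 3.18e-06) for Gsta2, -1.20 (adjusted p = 1.81e-05) for Gsta4 and -0.61 (adjusted p = 0.00112) for Gstm7. CAST/EiJ minus C57BL/6J gave -1.09 (adjusted p = 1.92e-12) for Gstp1, -1.003 (adjusted p = 1.85e-10) for Gsto1, 2.68 (adjusted p = 6.96e-09) for Gsta2, -0.65 (adjusted p = 4.47e-08) for Mgst3, 0.66 (adjusted p = 4.94e-06) for Gstt1 and 1.11 (adjusted p = 0.0134) for Hmox1. NZO/HlLtJ minus CAST/EiJ gave 1.41 (adjusted p = 7.38e-16) for Gstp1, 1.11 (adjusted p = 9.1e-12) for Gsto1, 0.77 (adjusted p = 4.46e-10) for Mgst3, -0.98 (adjusted p = 2.99e-09) for Gstm5 and -1.35 (adjusted p = 1.22e-06) for Gsta4. The diet effect differed between NZO/HlLtJ and CAST/EiJ by 0.33 (adjusted p = 0.0306) for Tkt, -0.35 (adjusted p = 0.0384) for Ggt1 and 0.31 (adjusted p = 0.04) for Gpx3. Gsta2 had a wider sex gap in both CAST/EiJ and NZO/HlLtJ than in C57BL/6J, and these comparisons share the C57BL/6J libraries.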

How the results depend on the processing

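No paired analysis was possible because the labels carry no replicate numbers. The alternatives were DESeq2 size factors in edgeR, no filter on low counts, no run term, DESeq2's Wald test, limma on the deposited matrix, each strain fitted alone (sex and diet), the 10% fat libraries alone (strain) and each library left out in turn. The counts of members called for strain and sex stayed within 1.5 times of the reported ones in every alternative. The exceptions were all diet counts: the 5 members of NZO/HlLtJ became 2 with no filter and 1 with that strain fitted alone, and the diet effect of CAST/EiJ minus C57BL/6J went from 0 to 1 with DESeq2. The cause was not tested.

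With each library left out, NZO/HlLtJ minus C57BL/6J called 27 to 31 members, CAST/EiJ minus C57BL/6J 32 to 34 and NZO/HlLtJ minus CAST/EiJ 36 to 38. The sex comparisons called 31 to 33 in C57BL/6J and 32 to 35 in CAST/EiJ and in NZO/HlLtJ, and the differences of the sex effect 8 to 12, 12 to 16 and 13 to 17. Diet called 0 to 0 in C57BL/6J, 1 to 3 in CAST/EiJ and 1 to 6 in NZO/HlLtJ, where 13 of 16 libraries moved the count of 5 to between 1 and 3. In CAST/EiJ the count was 2 without female 44% fat library 1 and 3 without male 10% fat library 3. The differences of the diet effect gave 0 to 0 for NZO/HlLtJ minus C57BL/6J, 0 to 1 for CAST/EiJ minus C57BL/6J (1 without CAST/EiJ female 44% fat library 2 or male 44% fat library 4) and 0 to 4 for NZO/HlLtJ minus CAST/EiJ, where 9 of 31 libraries moved it to 0 or 1.

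Of the 248 calls of single members over the 15 comparisons, 207 were made in every alternative and 41 were lost in at least 1, of which 31 were lost without at least 1 library and 16 on 10% fat alone. None of the 248 turned its direction in any alternative. Depth limits Slc7a11 and Gstm6, and Gstm3 was not tested.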
